A study of Mus musculus with 8 samples.

Results

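Transcript abundance of 10 Polycomb genes, taken by name and matched by Entrez identifier, was compared between *Arid1a* WT and *Arid1a* cKO pachytene spermatocytes. They were the ligase genes of Polycomb repressive complex 1 (PRC1), *Rnf2* and *Ring1*, the PCGF genes *Bmi1*, *Pcgf2* and *Pcgf6*, *Scml2*, the methyltransferase genes of Polycomb repressive complex 2 (PRC2), *Ezh2* and *Ezh1*, and the PRC2 core genes *Eed* and *Suz12*. All 10 were among the 21058 genes of the tables and among the 17643 that were tested. Polycomb group proteins hold genes silent by marking histones. PRC1 places ubiquitin on histone H2A at lysine K119 through the ligases RING1 or RNF2, and its PCGF subunit sets which PRC1 form is built. PRC2 methylates histone H3 at lysine K27 through EZH1 or EZH2, held in a core with EED and SUZ12. SCML2 is a germline PRC1 partner encoded on the X chromosome, where it takes part in the chromatin of the sex body, the compartment in which the X and Y are kept silent at pachynema.

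RNA had been sequenced from 4 *Arid1a* WT and 4 *Arid1a* cKO preparations of pachytene spermatocytes, and the comparison asks how loss of ARID1A, a putative DNA-binding subunit of the BAF chromatin remodeller, changes transcript abundance at pachynema. Males of the *Arid1a* cKO group were *Arid1a* fl/fl with *Stra8-Cre* Tg/0, those of the *Arid1a* WT group *Arid1a* fl/fl or *Arid1a* fl/+, and all were adults. The floxed line was on a CD1 background and was crossed with *Stra8-Cre* mice. Every animal thus carried at least 1 floxed allele, and the presence of Cre differed together with the excision. *Stra8-Cre* acts in spermatogonia, its excision was incomplete, and pachytene spermatocytes that escaped it can be in the *Arid1a* cKO preparations. Cells of several testes were pooled and sorted by sedimentation at unit gravity (Sta-Put), and the labels call the libraries biological replicates without saying that each came from a separate purification, so p-values measure the spread between these libraries. In bulk RNA, fewer cells of a type and less RNA per cell cannot be told apart.

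Libraries held 15850961 to 22044507 estimated counts. *Arid1a* itself stood at 98.8 to 128.5 CPM (counts scaled to library size) in *Arid1a* WT and at 76.4 to 82.9 CPM in *Arid1a* cKO, without overlap. The log2 fold change was -0.51 ± 0.07 (SE, adjusted p = 2.31e-05, edgeR's quasi-likelihood test). Counts over the whole gene include the excised transcript, which the paper detected in *Arid1a* cKO pachytene spermatocytes, so this fall does not measure the loss of ARID1A. By immunofluorescence the paper found no detectable ARID1A in most of those cells. Of all genes tested, 36.5% were higher and 37.5% lower in *Arid1a* cKO at an adjusted p of 0.05, 74.0% in all, so a call by itself sets no gene apart. Higher genes made up 49.3% of the calls of edgeR on counts, 45.3% of those of limma on log2(TPM + 1), where TPM is abundance per transcript length, and 38.9% of those of limma on TPM rescaled to the listed genes, a scaling added after the data were seen. Among lists of testis cell markers, the summed TPM of 18 pachytene genes ran from 8155 to 8593 in *Arid1a* WT and from 6750 to 6962 in *Arid1a* cKO, with 7 higher and 9 lower, so markers of the labelled cell type were present in both. All 17 spermatid markers were higher, with sums of 6884 to 7760 in *Arid1a* WT and 27302 to 29223 in *Arid1a* cKO. All 10 Sertoli markers tested were lower (633 to 703 TPM against 179 to 185), 1 further Sertoli marker had no count in any library, and 6 of 7 Leydig markers were lower (78.7 to 92.2 TPM against 7.27 to 8.91). Spermatogonial sums overlapped (130 to 139 TPM against 128 to 140), with 11 of 14 genes higher and 2 lower. Of the markers of leptonema and zygonema 7 of 10 were higher and 3 lower, with sums of 399 to 428 TPM in *Arid1a* WT and 359 to 378 in *Arid1a* cKO. Of 9 blood and myeloid markers 7 were higher and 1 lower (8.06 to 9.79 TPM against 13.35 to 15.96), and of 8 peritubular and endothelial markers 6 were higher and 1 lower (11.2 to 15.2 TPM against 16.05 to 18.2). In TPM as deposited, all these sums but the spermatogonial one differed between genotypes without overlap. Of that TPM the listed genes held 78.1 to 81.1% in *Arid1a* WT and 88.1 to 88.6% in *Arid1a* cKO. The sums were not rescaled to the listed genes, where the close ones, spermatogonial and peritubular and endothelial, can come out otherwise. The part of these markers in the differences of the Polycomb genes was not tested.

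Each of the 10 Polycomb genes passed the test, 4 higher and 6 lower in *Arid1a* cKO, as did 74.0% of all genes tested. The largest fall was that of *Pcgf6* at 4.19-fold and the largest rise that of *Scml2* at 3.60-fold. The median log2 fold change of the 10 genes was -0.31 and that of all genes -0.02. In CPM the libraries of the genotypes did not overlap for 9 of the 10 genes, which was so for 68.9% of all genes tested. The summed TPM of the 10 genes was 453 to 485 in *Arid1a* WT and 434 to 465 in *Arid1a* cKO, which overlap. The listed genes held a smaller share of TPM in *Arid1a* WT (78.1 to 81.1%) than in *Arid1a* cKO (88.1 to 88.6%). Rescaling to them, not done for this sum, lowers *Arid1a* cKO relative to *Arid1a* WT, so the overlap does not show an unchanged total.

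**Figure D1:**
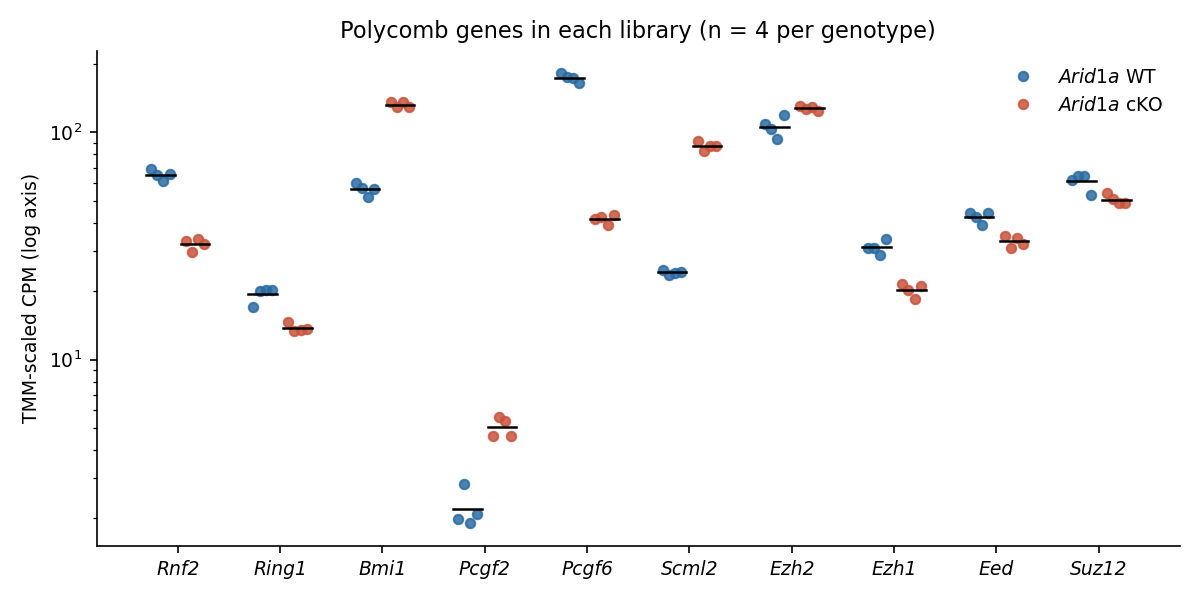
TMM-scaled CPM of the 10 Polycomb genes on a log axis; each point is a library, blue for *Arid1a* WT and red for *Arid1a* cKO (n = 4 each), and each bar is the mean of 4 libraries. *Bmi1*, *Pcgf2*, *Scml2* and *Ezh2* lie higher in *Arid1a* cKO, the other 6 lie lower, and the groups overlap for *Suz12*.

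The 4 members with the largest changes on counts were *Pcgf6*, *Scml2*, *Bmi1* and *Pcgf2*, of which *Pcgf2* changed less than *Ring1* with length offsets and on log2(TPM + 1), and the DNA before the start of each is shown so that the promoters of genes that moved far in either direction can be read side by side. The sequences are the 250 bases upstream of the RefSeq start on the GRCm38.p6 assembly, written 5′ to 3′ on the strand of the gene, and the capitals mark the E-box CACGTG.
Scml2 (chrX:161162500-161162749, plus strand): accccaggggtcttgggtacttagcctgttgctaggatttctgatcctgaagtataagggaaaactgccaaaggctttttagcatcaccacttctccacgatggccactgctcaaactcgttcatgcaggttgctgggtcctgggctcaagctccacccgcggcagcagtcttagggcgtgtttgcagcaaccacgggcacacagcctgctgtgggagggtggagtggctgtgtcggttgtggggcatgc
Pcgf6 (chr19:47050907-47051156, minus strand): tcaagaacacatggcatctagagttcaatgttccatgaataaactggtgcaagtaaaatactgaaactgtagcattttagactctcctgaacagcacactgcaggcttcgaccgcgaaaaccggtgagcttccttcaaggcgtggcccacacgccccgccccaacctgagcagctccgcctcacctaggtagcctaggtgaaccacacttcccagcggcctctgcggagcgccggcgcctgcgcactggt
Bmi1 (chr2:18676768-18677017, plus strand): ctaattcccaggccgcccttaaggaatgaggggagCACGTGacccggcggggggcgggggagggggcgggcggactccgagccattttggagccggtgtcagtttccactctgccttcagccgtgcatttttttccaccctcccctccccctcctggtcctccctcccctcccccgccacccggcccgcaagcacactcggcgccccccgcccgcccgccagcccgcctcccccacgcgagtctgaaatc
Pcgf2 (chr11:97699649-97699898, minus strand): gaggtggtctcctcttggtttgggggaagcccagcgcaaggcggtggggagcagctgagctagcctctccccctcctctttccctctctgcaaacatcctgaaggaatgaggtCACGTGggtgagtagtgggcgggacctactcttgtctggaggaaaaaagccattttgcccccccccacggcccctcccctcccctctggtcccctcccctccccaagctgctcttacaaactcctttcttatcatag

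The starts used for *Scml2*, *Pcgf2*, *Pcgf6* and *Ezh2* lie inside the span of the gene's RefSeq record, which begins further upstream, so these 4 windows lie wholly or in part within the record. CpG pairs numbered 7 before *Scml2*, 14 before *Pcgf6*, 21 before *Bmi1* and 5 before *Pcgf2*, beside a median of 6 over 32851 RefSeq promoters of the same length. The E-box CACGTG, which reads the same on both strands, was found in 2 of the 10 members, *Bmi1* at 215 bases and *Pcgf2* at 137 bases before the start. It was found in 6.02% of all promoters. The E2F motif TTCCCGC, searched on both strands, was found only before *Suz12* among the 10 (3.82% of all promoters), the CCAAT box CCAAT was found before *Ezh2* and *Suz12* (33.8%), and the cyclic AMP response element TGACGTCA was found before none of the 10 (1.55%). None of these motifs contains another, and a match describes letters, not a bound site.

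*Scml2* (Entrez 107815, chrX:161082525-161258218, GRCm38.p6) rose in *Arid1a* cKO. It stood at 24.9, 23.7, 24.0 and 24.2 CPM in *Arid1a* WT libraries 1 to 4 and at 91.4, 83.2, 86.8 and 87.3 CPM in *Arid1a* cKO libraries 1 to 4. All *Arid1a* cKO libraries were above all *Arid1a* WT libraries, and the log2 fold change was 1.85 ± 0.05 (SE, adjusted p = 2e-13). Per transcript length it went from 14.9 ± 2.19 TPM to 47.1 ± 3.04 TPM (SD, n = 4), and none of its 31-base words occur in transcripts of another gene. Of the 799 X-linked genes tested, 66.6% were higher in *Arid1a* cKO, and their median log2 fold change was 1.32, with quartiles of 0.20 and 2.44. *Scml2* ranked 306 among them, with a smaller log2 fold change in 61.7%, so its rise lies inside the middle range of its chromosome. Of the 5 nearest tested genes on each side, 7 of 10 were higher and 2 lower, and the median log2 fold change was 1.49. *Ppef1*, a phosphatase gene that starts 460.1 kb before *Scml2*, had a log2 fold change of 2.73, and *Gja6*, a connexin gene 180.4 kb before it, had -1.51. On the other side *Rai2*, 634.5 kb after it, had 2.78. *Nhs*, 750.8 kb after it, had -1.27. *Phka2* (2.15), *Reps2* (1.04), *Rbbp7* (0.37) and *Txlng* (1.94) also had positive log2 fold changes that passed the test.

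*Rnf2* (Entrez 19821, chr1:151469398-151500991), the more abundant PRC1 ligase gene, fell. Its levels were 68.8, 65.1, 61.1 and 65.7 CPM in *Arid1a* WT and 33.2, 29.7, 34.0 and 32.1 CPM in *Arid1a* cKO. The genotypes did not overlap, and the log2 fold change was -1.01 ± 0.06 (SE, adjusted p = 6.93e-10). *Ring1* (Entrez 19763, chr17:34020792-34024680), its paralog, stood at 17.1, 20.1, 20.2 and 20.3 CPM in *Arid1a* WT and at 14.7, 13.4, 13.5 and 13.6 CPM in *Arid1a* cKO. It too fell without overlap, with a log2 fold change of -0.49 ± 0.07 (SE, adjusted p = 2.93e-05). The summed TPM of the ligase pair was 62.7 ± 2.11 in *Arid1a* WT and 36.2 ± 3.86 in *Arid1a* cKO (SD, n = 4).

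*Pcgf6* (Entrez 71041, chr19:47033617-47050939) encodes the PCGF subunit of the variant PRC1.6 complex, which is known for holding germline genes silent in other cells. Its levels were 182.1, 174.6, 173.8 and 165.6 CPM in *Arid1a* WT and 41.7, 42.4, 39.0 and 43.2 CPM in *Arid1a* cKO. Its fall had a log2 fold change of -2.07 ± 0.05 (SE, adjusted p = 1.04e-13). *Bmi1* (Entrez 12151, chr2:18677018-18686629) encodes PCGF4 of canonical PRC1 and went the other way. It stood at 60.2, 56.8, 52.1 and 56.4 CPM in *Arid1a* WT and at 136.0, 129.0, 135.8 and 129.2 CPM in *Arid1a* cKO. The log2 fold change of this rise was 1.23 ± 0.05 (SE, adjusted p = 2.46e-11). Its count is uncertain in part, because 27.5% of its 31-base words also occur in *Gm5946*, an X-linked processed pseudogene that is not among the listed genes, and reads of the shared stretches cannot be told apart. *Pcgf2* (Entrez 22658, chr11:97688821-97702434), the canonical paralog of *Bmi1*, was the lowest of the 10 genes in counts. It had 1.98, 2.84, 1.91 and 2.09 CPM in *Arid1a* WT and 4.63, 5.60, 5.36 and 4.63 CPM in *Arid1a* cKO. It rose with a log2 fold change of 1.19 ± 0.15 (SE, adjusted p = 5.07e-06), resting on 38.3 to 62.4 counts per *Arid1a* WT library and 71.7 to 111.9 per *Arid1a* cKO library. Its rise was smaller on log2(TPM + 1) (0.56, adjusted p = 0.00839, limma) and on rescaled TPM (0.45, adjusted p = 0.0266, limma), and in TPM the genotypes overlapped (4.02 to 6.77 against 6.59 to 9.05).

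The members thus changed place within the PCGF family, a comparison drawn up after the values were seen and given with no test. *Pcgf6* held 35.7 ± 1.54% of the summed TPM of the 6 PCGF genes in *Arid1a* WT and 10.4 ± 0.61% in *Arid1a* cKO (SD, n = 4). *Bmi1* held 17.2 ± 0.90% and 55.4 ± 1.68%. *Pcgf5* went from 23.2% to 13.6%, *Pcgf1* from 21.4% to 16.3% and *Pcgf2* from 1.45% (1.18 to 1.88) to 3.02% (2.66 to 3.56). *Pcgf3* held 1.02% and 1.35%, with overlapping libraries. The shares of *Pcgf6* and *Bmi1* did not overlap between genotypes, and the shared sequence of *Bmi1* bears on its share too. The family's sum was 339 ± 15.7 TPM in *Arid1a* WT and 254.7 ± 7.83 TPM in *Arid1a* cKO (SD, n = 4).

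**Figure D2:**
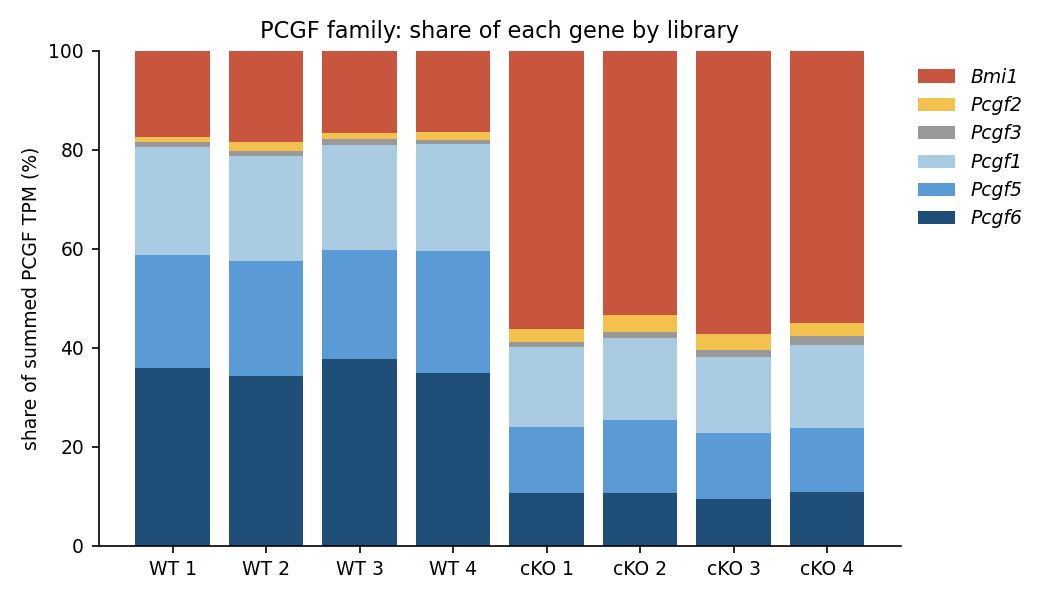
Share of each PCGF gene in the summed TPM of the 6 PCGF genes, in percent, for each of the 8 libraries. *Pcgf6* (dark blue) takes 34.3 to 37.8% in *Arid1a* WT and 9.45 to 10.8% in *Arid1a* cKO, and *Bmi1* (red) takes 16.4 to 18.4% and 53.3 to 57.2%.

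*Ezh2* (Entrez 14056, chr6:47530274-47595270), the methyltransferase gene of dividing cells, was among the most abundant of the 10 genes in both genotypes, and its difference depended on the scale. Its levels were 108.5, 103.1, 93.6 and 118.9 CPM in *Arid1a* WT and 130.7, 126.3, 128.8 and 124.2 CPM in *Arid1a* cKO. The log2 fold change was 0.27 ± 0.06 (SE, adjusted p = 0.00173), but in TPM the libraries overlapped (116.1 to 129.7 against 120.6 to 131.6). The call was lost with offsets for transcript length (0.13, adjusted p = 0.0706, edgeR) and the sign turned on rescaled TPM (-0.11, adjusted p = 0.0275, limma). *Ezh1* (Entrez 14055, chr11:101191115-101226463), the paralog of cells that divide less, fell. It stood at 30.9, 31.1, 28.9 and 34.0 CPM in *Arid1a* WT and at 21.5, 20.2, 18.5 and 21.1 CPM in *Arid1a* cKO, without overlap (log2 fold change -0.62 ± 0.07 SE, adjusted p = 1.15e-06).

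*Eed* (Entrez 13626, chr7:89954654-89980976), which encodes the PRC2 subunit that reads methylated H3K27, had 44.1, 42.6, 39.3 and 44.4 CPM in *Arid1a* WT and 35.0, 31.1, 34.5 and 32.4 CPM in *Arid1a* cKO. The fall had a log2 fold change of -0.36 ± 0.06 (SE, adjusted p = 8.21e-05), and the call was lost with offsets for transcript length (-0.17, adjusted p = 0.098, edgeR). In TPM the genotypes overlapped (42.7 to 49.5 against 33.6 to 44.3). The antisense gene *E230029C05Rik* shares 5.96% of its words, and the counting is not stated to use strand. *Suz12* (Entrez 52615, chr11:79993106-80034123), the PRC2 scaffold gene, had 61.6, 64.2, 64.5 and 53.2 CPM in *Arid1a* WT and 53.9, 50.9, 49.0 and 48.9 CPM in *Arid1a* cKO. Library 4 of *Arid1a* WT lay below library 1 of *Arid1a* cKO, so the genotypes overlapped, and the log2 fold change was -0.26 ± 0.06 (SE, adjusted p = 0.00207). *Ezh2*, *Eed* and *Suz12* thus differed by 1.202-fold, 1.281-fold and 1.201-fold on counts, less than the other 7 members.

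**Figure D3:**
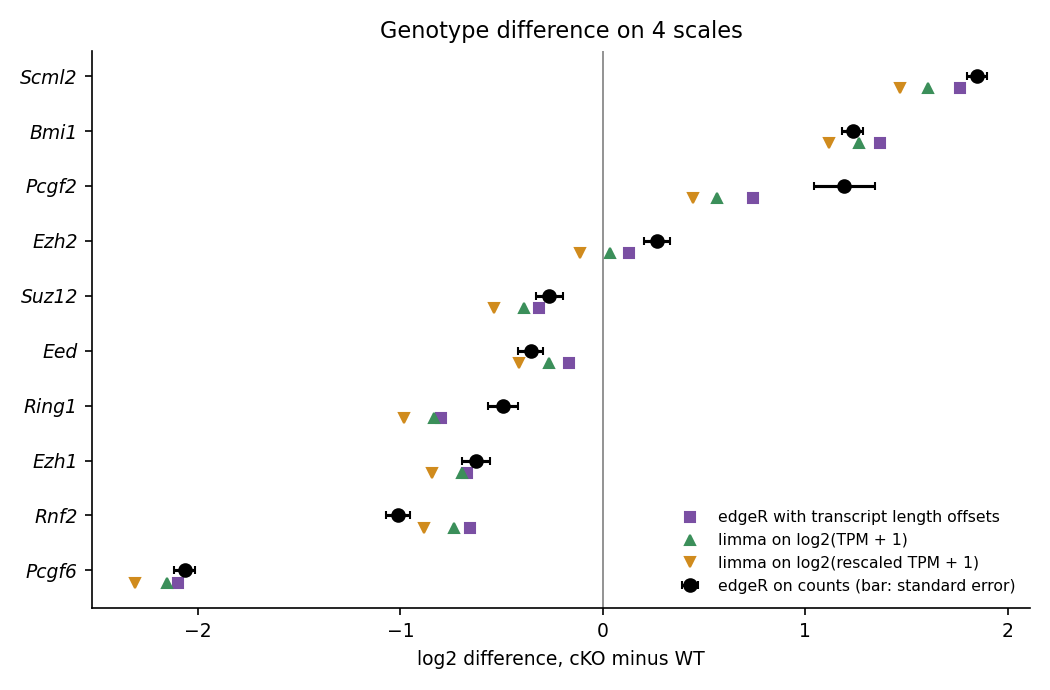
Genotype difference of each Polycomb gene on the log2 scale (*Arid1a* cKO minus *Arid1a* WT), with the standard error for edgeR on counts, and the same difference from edgeR with transcript length offsets, limma on log2(TPM + 1) and limma on log2(rescaled TPM + 1). *Ezh2* runs from 0.27 to -0.11 across these scales, and the other 9 genes keep their sign.

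Levels can be ranked between genes only per length, and by mean TPM the order changed with genotype. In *Arid1a* WT *Ezh2* (121.5) and *Pcgf6* (120.9) led and overlapped. *Bmi1* (58.4) followed apart from both, then *Eed* (46.5) and *Rnf2* (43.6), which overlapped, and *Suz12* (22.9), *Ring1* (19.1), *Scml2* (14.9) and *Ezh1* (12.7), each of which overlapped the next, with *Pcgf2* (4.95) apart at the bottom. In *Arid1a* cKO *Bmi1* (141) led, apart from *Ezh2* (124.7). *Scml2* (47.1) came next and overlapped *Eed* (38.7), *Pcgf6* (26.4) and *Rnf2* (26.0) overlapped, *Suz12* (17.1) and *Ring1* (10.3) stood apart, and *Pcgf2* (7.71) and *Ezh1* (7.48) overlapped. *Pcgf6* thus went from rank 2 to rank 5 and *Scml2* from rank 8 to rank 3.

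The ratio of paralogs within a library does not depend on library scaling, and 3 pairs were compared by two-sided exact permutation of TPM ratios, adjusted over the 3. The ratio of *Ezh1* to *Ezh2* was 0.098, 0.114, 0.110 and 0.097 in *Arid1a* WT and 0.067, 0.056, 0.052 and 0.065 in *Arid1a* cKO. It was lower in every *Arid1a* cKO library, 1.75-fold on average (exact p = 0.0286, adjusted p = 0.0429), where 0.0286 is the smallest p that 4 against 4 libraries can give. The ratio of *Pcgf2* to *Bmi1* was 0.068, 0.102, 0.074 and 0.092 in *Arid1a* WT and 0.048, 0.067, 0.056 and 0.048 in *Arid1a* cKO. It was also lower without overlap, 1.53-fold (exact p = 0.0286, adjusted p = 0.0429), but as a ratio of counts it differed by -0.03 on the log2 scale (exact p = 0.914). The ratio of *Ring1* to *Rnf2* was 0.387, 0.416, 0.507 and 0.447 in *Arid1a* WT and 0.413, 0.359, 0.372 and 0.453 in *Arid1a* cKO. These overlap, and the log2 difference of -0.14 did not pass (exact p = 0.286, adjusted p = 0.286). As a ratio of counts the sign turned, to 0.52 (exact p = 0.0286). Counts and TPM part for these pairs because they differ by the length of the transcripts behind each gene, which is described next.

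The count of a gene divided by its TPM recovers, up to a factor per library, the mean effective length of the transcripts that Salmon assigned its reads to. Centred on the median gene of each library, this length differed between genotypes for 5 of the 10 genes, *Rnf2*, *Ring1*, *Pcgf2*, *Pcgf6* and *Ezh2*, and for 50.8% of the 13958 genes tested (limma, adjusted p of 0.05 or less). Genes with a single annotated transcript, whose length should not differ, showed a shift under that centring, and with 1429 of these genes as the reference, a choice made after the data were seen, 3 of the 10 genes and 15.5% of all genes were called. This reference lowered every log2 difference in length by 0.06, and the calls of *Pcgf6* (0.06) and *Ezh2* (0.16) were made only under the first centring. *Pcgf2* had transcripts 133.1% as long in *Arid1a* cKO as in *Arid1a* WT (adjusted p = 0.00508, limma), with 91.6 to 109.1% of the *Arid1a* WT mean in *Arid1a* WT libraries and 125.9 to 140.4% in *Arid1a* cKO libraries. *Ring1* had transcripts 120.4% as long (adjusted p = 0.0161), at 97.0 to 106.7% in *Arid1a* WT and 111.6 to 130.9% in *Arid1a* cKO. *Rnf2* went the other way, to 76.2% (adjusted p = 0.0422), at 96.2 to 103.3% in *Arid1a* WT and 64.5 to 88.5% in *Arid1a* cKO. None of these 3 genes overlapped between genotypes. With the same reference *Pcgf6* was at 99.9% (adjusted p = 0.926) and *Scml2* at 103% (adjusted p = 0.826), so the largest fall and the largest rise did not come with a called difference in length there. GENCODE M21 lists 3 transcripts of 371 to 2552 bases for *Ring1*, 7 of 482 to 3201 bases for *Rnf2* and 7 of 470 to 2485 bases for *Pcgf2*; which of them were used was not analysed here. With these lengths as offsets in edgeR, 3 of the 10 genes were higher and 5 lower, where the shares of all genes were 34.6% and 35.3%. *Rnf2* (-0.65) then changed by less and *Ring1* (-0.80) by more than on counts alone, and *Pcgf2* rose by 0.74.

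**Figure D4:**
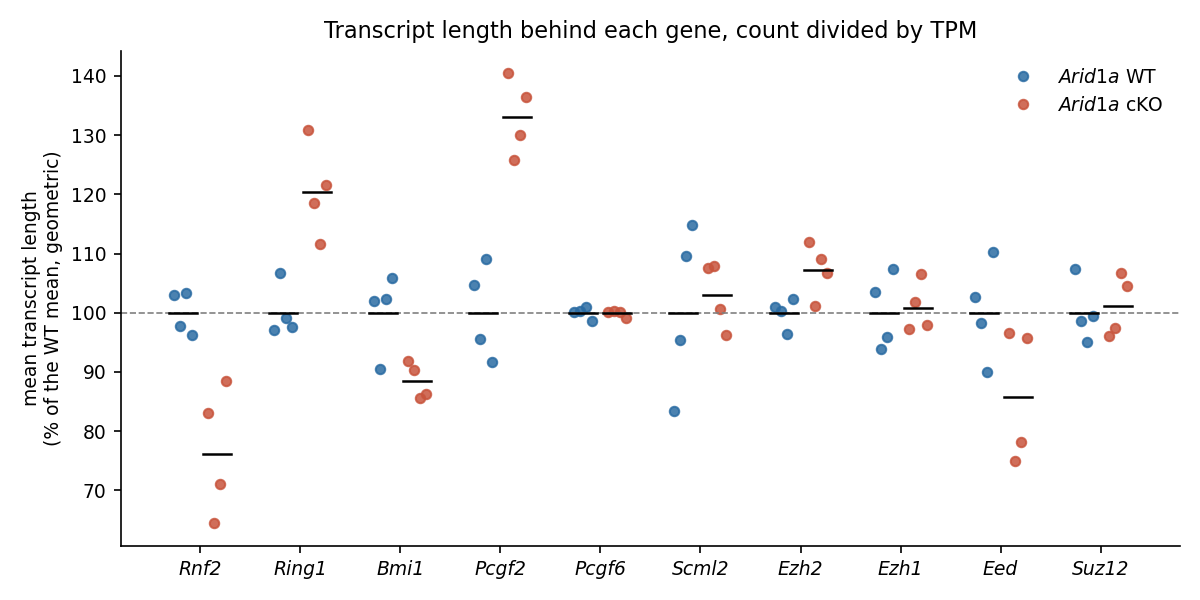
Mean effective transcript length of each Polycomb gene in each library, as a percent of the geometric mean of the *Arid1a* WT libraries and centred on genes with 1 annotated transcript; points are libraries (n = 4 per genotype) and bars are geometric means. *Ring1* and *Pcgf2* lie above, and *Rnf2* below, all their *Arid1a* WT libraries.

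The members were set beside 59 other Polycomb genes from 4 lists. Of these 59 genes 24 were higher, 26 lower and 9 not called, with a median log2 fold change of 0.01. Among all genes tested the shares were 36.5% higher and 37.5% lower. Of 32 other PRC1 genes 9 were higher and 17 lower, with a median of -0.25. Among called genes at or above a mean log2 CPM of 1, the largest falls were seen for *L3mbtl2* (-2.41 ± 0.05 SE), *Tfdp1* (-1.89 ± 0.05) and *Yy1* (-1.69 ± 0.05). *L3mbtl2* encodes a chromatin reader of PRC1.6, *Tfdp1* the DNA-binding partner of E2F factors and *Yy1* a zinc finger factor related to fly Pho. The largest rises were those of the X-linked corepressor genes *Bcorl1* (2.06 ± 0.09) and *Bcor* (1.99 ± 0.14), which belong with PCGF1 in PRC1.1, and of the deubiquitinase gene *Usp7* (1.04 ± 0.05). *L3mbtl2* went from 122.1 to 138.3 CPM in *Arid1a* WT to 23.7 to 25.2 CPM in *Arid1a* cKO. *Tfdp1* (21.7% of words shared), *L3mbtl2* (15.0%), *Pcgf1* (23.1%), *Rybp* (10.8%) and the PRC2 gene *Rbbp7* (16.5%) share sequence with other genes, which makes their counts uncertain in part. Further genes whose products are found with PCGF6 in PRC1.6, named after their values were seen, did not all move one way. *Max* (-0.94) and *E2f6* (-0.67) fell. *Wdr5* (-0.10, adjusted p = 0.101) and *Yaf2* (-0.05, adjusted p = 0.673) were not called, and *Rybp* was lower on counts (-0.35) and higher with length offsets (0.32, adjusted p = 0.000558, edgeR). *Mga*, the scaffold gene of PRC1.6, had 54.7 to 81.8 CPM in *Arid1a* WT and 65.9 to 74.9 CPM in *Arid1a* cKO and was not called (0.03, adjusted p = 0.786). Among the CBX genes of canonical PRC1, *Cbx7* fell (-1.52) and *Cbx2* rose (0.78), and *Cbx7* remained the most abundant in every library, with 76.0 ± 1.09% of the summed CBX TPM in *Arid1a* WT and 60.4 ± 2.28% in *Arid1a* cKO (SD, n = 4); these 2 genes were also chosen after their values were seen.

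**Figure D5:**
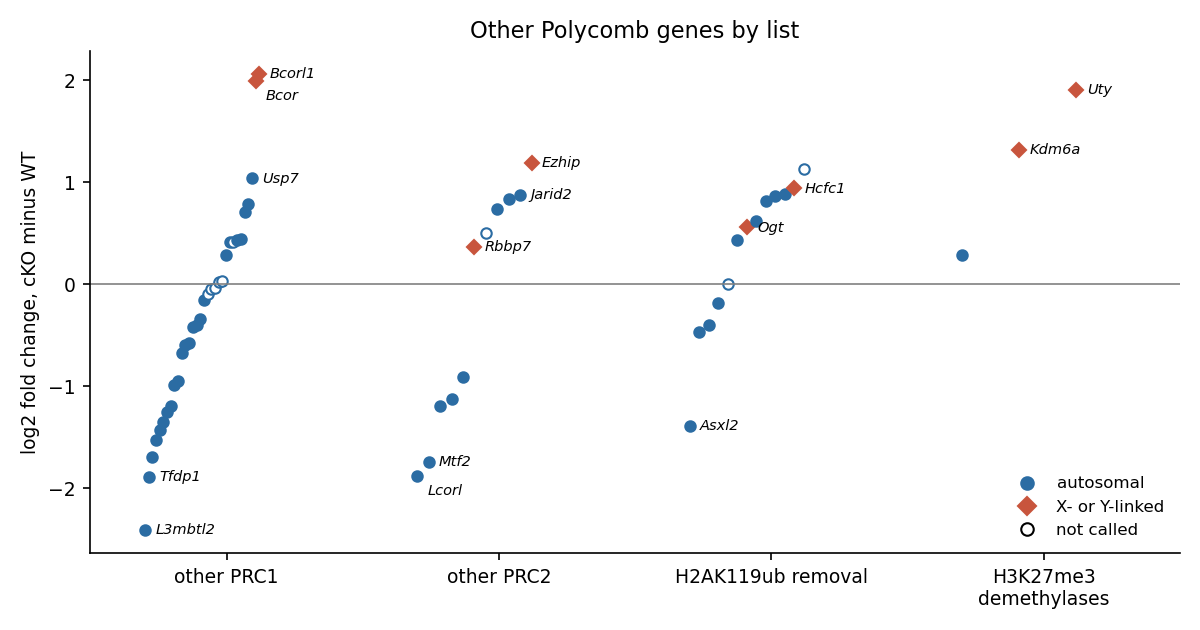
Log2 fold change (*Arid1a* cKO minus *Arid1a* WT) of 59 other Polycomb genes in 4 lists, each point a gene; red diamonds are X- or Y-linked, blue circles autosomal, and open symbols were not called. All 8 sex-linked genes lie above 0, and *L3mbtl2* (-2.41) is the lowest point.

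Of 11 other PRC2 genes 5 were higher and 5 lower, with a median log2 fold change of 0.37. The shares of all genes tested, for this and the next lists, were 36.5% higher and 37.5% lower. *Lcorl* (-1.88 ± 0.06 SE), whose locus encodes a PALI protein, *Mtf2* (-1.74 ± 0.09) and *Phf1* (-1.19 ± 0.06), which encode Polycomb-like proteins that recruit PRC2, fell most. *Phf1* shares 32.5% of its words with the overlapping gene *Cuta*. *Ezhip* (1.19 ± 0.25), an X-linked inhibitor of EZH2, *Jarid2* (0.87 ± 0.05), a PRC2 cofactor, and *Lcor* (0.84 ± 0.09) rose most. Of 13 genes for removal of ubiquitin from H2A 7 were higher and 4 lower. Among called genes on counts, *Hcfc1* (0.94 ± 0.08), *Bap1* (0.89 ± 0.05), the catalytic subunit of the deubiquitinase, and *Usp16* (0.87 ± 0.05) rose most. *Asxl3* (1.13, adjusted p = 0.103, edgeR) was not called. With length offsets *Mbd5* (0.83) and *Kdm1b* (0.76) rose more than *Bap1* (0.74) and *Usp16* (0.69). *Asxl2* (-1.39 ± 0.08), *Mysm1* (-0.47 ± 0.08) and *Foxk1* (-0.40 ± 0.05) fell most on counts, and *Mysm1* was not called with length offsets (-0.34, adjusted p = 0.0625, edgeR). All 3 H3K27 demethylase genes were higher on counts, the X-linked *Kdm6a* (1.32 ± 0.11), its Y-linked paralog *Uty* (1.90 ± 0.11) and the autosomal *Kdm6b* (0.29 ± 0.10, adjusted p = 0.0202), the last with overlapping genotypes. *Kdm6b* was not called with length offsets (0.20, adjusted p = 0.226) or without *Arid1a* WT library 1 (0.23) or *Arid1a* cKO library 2 (0.26) or 3 (0.24), and its sign turned on rescaled TPM (-0.04). By chromosome, all 8 sex-linked genes of the 4 lists were higher on counts, *Rbbp7* (0.37) and *Ogt* (0.56) among them, though those 2 were not called on rescaled TPM (0.08 and 0.28), beside 66.6% of the X-linked genes tested, and of the 51 autosomal genes 16 were higher and 26 lower.

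*Hox* genes are textbook targets of both complexes in the embryo, and most were scarce here. Of 39 genes listed, 30 were tested, 6 were higher, 5 lower and 19 not called, with a median log2 fold change of -0.23. Among all genes tested 36.5% were higher and 37.5% lower. Among the calls with the largest changes were *Hoxa3* (-1.64 ± 0.10 SE, adjusted p = 2.51e-09) and *Hoxd10* (-1.57 ± 0.59, adjusted p = 0.0269). *Hoxd10* rests on 5 to 12 counts per *Arid1a* WT library and 0 to 5 per *Arid1a* cKO library, and was not called with DESeq2 (adjusted p = 0.0568) or without library 1 or 4 of *Arid1a* WT or library 1, 3 or 4 of *Arid1a* cKO (-1.51 to -1.23). *Hoxa3* went from 11.99 to 15.5 CPM in *Arid1a* WT to 4.25 to 4.88 CPM in *Arid1a* cKO. Its count and that of *Hoxa4* are uncertain in part, because 26.0% and 14.4% of their words occur in other genes. The most abundant *Hox* genes, chosen after their values were seen, were *Hoxa4*, at 60.4 to 72.1 CPM in *Arid1a* WT and 51.6 to 61.3 in *Arid1a* cKO (-0.23 ± 0.06, adjusted p = 0.00508), and *Hoxd8*, at 38.3 to 47.3 and 81.4 to 84.0 CPM (1.00 ± 0.06, adjusted p = 2.1e-09). The count of higher *Hox* genes was 3 in place of 6 on log2(TPM + 1) and on rescaled TPM. The count of lower *Hox* genes was 2 with DESeq2 and 3 without library 1 of *Arid1a* cKO.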

How the data were processed

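Messenger RNA of 4 *Arid1a* WT and 4 *Arid1a* cKO preparations was compared; all 8 columns of each table matched a label, and 0 stayed unmatched. The authors used Salmon for quantification, brought transcripts to Entrez gene level by tximport with mm10 annotations, and deposited estimated counts per gene. TPM were likewise deposited; they are scaled over all transcripts of a library, listed or not, so the listed genes held 78.1 to 81.1% in *Arid1a* WT and 88.1 to 88.6% in *Arid1a* cKO. A further table holds the authors' own log2 fold changes and p-values and was not used. Identifiers were matched to RefSeq (GRCm38.p6; 21036 of 21058), and all 10 members had a promoter there.

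Estimated counts were rounded to whole numbers (the planned test assumed whole counts). Genes reaching 10 summed counts were tested with edgeR 4.0.16 in R 4.3.3 (TMM, quasi-likelihood, genotype only, Benjamini-Hochberg adjustment over all genes, 0.05). CPM use TMM-scaled library sizes. Transcript lengths needed 10 counts in every library and were tested with limma 3.58.1. Ratios were tested over the 70 assignments of libraries. Sequence sharing was counted in GENCODE M21 transcripts, both strands. In simulated counts for 17553 genes with 200 changed 2-fold, edgeR recovered 100% with 5.21% of calls unchanged genes. The changed genes were well-counted ones, up or down at random, and all genes had the same dispersion. In the data 74.0% of genes were called and most *Hox* genes had few counts, so these rates need not hold there. For length 75% of 200 genes changed 1.41-fold were recovered. Replicates differed beyond counting noise (chi-square per degree of freedom 1.71 to 18). Tables were summarised in Python 3.11.15 with pandas 2.3.3.

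Alternatives were DESeq2 1.42.0, length offsets, other scalings and filters, limma on log2(TPM + 1) and log2(TPM + 0.1), a replicate block, an adjusted p of 0.01 and leaving out each library. The members and lists were chosen with earlier results of these data known. Named were all members, *Arid1a*, sex-linked genes and, on counts, the 3 largest called rises and falls of each Polycomb list (mean log2 CPM of 1 or more). The 3 largest called *Hox* changes and the 5 tested neighbours on each side of *Scml2* were also named. Other names are marked as chosen later or given for comparison, and not every gene that this rule takes in is reported.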

Additional observations from a re-analysis of the deposited data

Results flagged for a closer look

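In 46 groups of 4 libraries (CPM and transcript length of the 10 genes and 3 paralog ratios, in each genotype), 2 held a library far from the other 3 by Dixon's test at the 95% level, where chance gives about 2.3. *Ring1* was lower in *Arid1a* WT library 1, at 17.1 CPM beside 20.1 to 20.3 in the other 3, and the gap was 0.947 of the range. The transcript length of *Pcgf6* in *Arid1a* cKO library 4 lay below the other 3 by 0.859 of the range, which spans 99.1 to 100.3% of the *Arid1a* WT mean. Without *Arid1a* WT library 1 the log2 fold change of *Ring1* was -0.55, beside -0.49 with it.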

How the results depend on the processing

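Of 387 values under alternatives, 369 kept their direction and their side of the threshold, their count within 1.5 times or, for paralog ratios without a library or with same-numbered libraries paired, where no test was run or could pass, their value within 1 SD. The paired paralog values equal the unpaired ones by construction, so counting them among the 369 carries no information. Members higher numbered 3 to 4 and lower 5 to 7 (4 and 6 in each of the 8 fits without a library), and other Polycomb genes 17 to 25 and 22 to 28. *Pcgf6*, *Scml2*, *Bmi1*, *Pcgf2*, *Rnf2*, *Ring1*, *Ezh1* and *Suz12* passed under every alternative, with a largest adjusted p of 0.0266. *Ezh2* was not called with length offsets (DESeq2 0.15, edgeR 0.13) or on log2(TPM + 1) and log2(TPM + 0.1) (0.04 each), and reversed on rescaled TPM (-0.11); *Eed* was not called with length offsets (-0.14 and -0.17). Ratios of counts gave 0.52 for *Ring1* to *Rnf2*, reversed from -0.14, and -0.027 for *Pcgf2* to *Bmi1*; transcript length, which counts carry and TPM do not, differs by construction. Without each library in turn these ratios gave -0.20 to -0.07 and -0.72 to -0.52, and *Ezh1* to *Ezh2* -0.86 to -0.74, with no test. Changed lengths numbered 3 in place of 5 when centred on genes with 1 transcript, and 4 to 5 without a library. *Hox* genes higher numbered 3 in place of 6 on log2(TPM + 1) and on rescaled TPM; lower ones numbered 2 in place of 5 with DESeq2, with or without length offsets, with filterByExpr, with 10 counts in every library and at an adjusted p of 0.01, and 3 to 6 without a library, the cause of which was not tested beyond the fewer genes that stricter filters test. The median of all genes was -0.12 without TMM and -0.13 on rescaled TPM.

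Same-numbered libraries of the genotypes share only a number: their deviations correlated at -0.09 to 0.2, and not every library correlated best with its own number. With the replicate block 4 members were higher and 6 lower, 25 and 26 other Polycomb genes, 6 and 5 *Hox* genes, and 4 lengths changed. The paired paralog differences were -0.14, -0.62 and -0.81, equal to the unpaired ones by construction, and 4 pairs cannot give an exact p under 0.125.

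Depth limits *Pcgf2*, at 38.3 to 111.9 counts per library, and most *Hox* genes.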
